A study of Mus musculus with 8 samples.

Results

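The promoters of the genes for the proteins of the cytosolic ribosome were compared between WT (wild-type) and GrnKO mice, the latter without a working Grn gene. Members were all genes with an Rpl or Rps symbol and a number, together with Rplp0, Rplp1, Rplp2 and Rpsa, that had at least 1 listed region centred within 1000 bp of the start site. This gave 77 genes with 140 regions, out of 13959 genes with 28204 such regions. The rule used names and positions only and no measured value. It also took 4 relatives of ribosomal proteins (Rpl7l1, Rpl22l1, Rps4l and Rps27l). Of 84 coding symbols of this form in RefSeq, 76 had a region this close. The others were Rpl10l, Rpl15, Rpl32l, Rpl39l, Rpl3l, Rps2, Rps27 and Rps28, and Rps4l was a member that RefSeq does not list as coding.

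H3K27ac, the acetylated form of lysine 27 of histone H3 that is found at active promoters and enhancers, was profiled by ChIP-seq, which sequences immunoprecipitated chromatin. The nuclei came from brains of C57BL/6 mice aged 2 years and were sorted as positive for PU.1, a transcription factor of myeloid cells such as microglia, and negative for OLIG2 and NEUN. Each genotype, WT or GrnKO, had 2 replicates. A replicate pooled the nuclei of 2 mice and had its own input library of chromatin that was not immunoprecipitated. Grn encodes progranulin, a secreted protein that also reaches lysosomes. The labels name the genotype as GrnKO, and the allele was not given in the sources used here.

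Ribosomal proteins assemble with ribosomal RNA into a large (60S) and a small (40S) subunit, and every translating cell needs nearly all of them in matched amounts. Their genes are among the most strongly transcribed in most cells. Many of their promoters lack a TATA box and start within a run of pyrimidines (C or T), so that the mRNA begins with a terminal oligopyrimidine (TOP) stretch through which mTOR signalling controls translation. Lysosomes, where progranulin acts, are also a site at which mTOR is activated.

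The promoters that the results turn on are shown first. Each sequence runs 5′ to 3′ on the strand of the gene from 100 bases before the annotated start to 20 bases from it, as given by RefSeq on GRCm38.p6. Capitals mark the pyrimidine run chosen within 20 bases of the start, and any ETS letters (CGGAAG), NFY letters (CCAAT) or SP letters (GGGCGG) on the printed strand or its reverse complement. Rpl6, chr5:121204401-121204520 on the plus strand, was the 1 member past the test's threshold. Rplp0, chr5:115559367-115559486 on the plus strand, encodes the base of the ribosomal stalk and did not differ beyond its error. Rpl14, chr9:120571417-120571536 on the plus strand, had the next smallest p-value. Rpl7a, chr2:26910707-26910826 on the plus strand, carried a long pyrimidine run at its start. Rpl14 and Rpl7a were chosen for display after their values and sequences were seen.
Rpl6: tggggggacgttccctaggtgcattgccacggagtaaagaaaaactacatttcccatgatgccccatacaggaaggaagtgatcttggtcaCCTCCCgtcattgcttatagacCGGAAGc
Rplp0: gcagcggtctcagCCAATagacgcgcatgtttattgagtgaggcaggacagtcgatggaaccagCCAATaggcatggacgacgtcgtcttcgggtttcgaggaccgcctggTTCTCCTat
Rpl14: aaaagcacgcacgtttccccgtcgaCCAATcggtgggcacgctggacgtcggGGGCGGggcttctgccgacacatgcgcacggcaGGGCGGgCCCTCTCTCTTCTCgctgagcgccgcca
Rpl7a: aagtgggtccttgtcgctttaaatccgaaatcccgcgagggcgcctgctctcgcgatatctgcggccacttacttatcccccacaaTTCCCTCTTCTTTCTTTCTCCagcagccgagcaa
The pyrimidine run was 6 bases in Rpl6, 7 in Rplp0, 14 in Rpl14 and 21 in Rpl7a.

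RefSeq gave a window from 250 bases before to 50 after the start for 56 members, and for 53 of them that start lay within 10 bp of the one in the table of regions. The ETS letters CGGAAG, which factors such as GABPA bind, stood on either strand of 37 of the 56 windows (66.1%). The same letters were in 16.9% of 32851 windows of all genes, in 33.9% of the 8675 windows of genes tested here, and in 55.1% of 69 windows of mitochondrial ribosomal protein genes. A run of 8 or more pyrimidines within 20 bases of the start was present in 25 members (44.6%) and in 16% of all windows. A C followed by TTT within 10 bases of the start was found in 25% of members, 9.41% of all windows and 7.35% of tested genes. Other letters set the members less apart from tested genes. SP letters (GGGCGG) were in 62.5% of members and 65.4% of tested genes, NFY letters (CCAAT) in 33.9% and 38.8%, and the TATA letters (TATAAA) in 7.14% and 6.67%. YY1 letters (AAGATGGC) were in 7.14% of members and 4.95% of tested genes, E-box letters (CACGTG) in 8.93% and 10.8%, and NRF1 letters (GCATGC) in 8.93% and 10.5%. A match of letters is a description and not a bound site.

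Values are tags, scaled by the authors to 10000000 per library and then by TMM factors that make the bulk of promoters comparable between libraries, and they are called scaled tags. The H3K27ac libraries held from 15491642.5 to 20030832 tags in total and the inputs from 4078179 to 14415969. WT replicate 1 stood apart, with 49.4% of its tags in the listed regions against 63.3% to 65.7% in the others. As a check of the labels, the Grn promoter held 1298 and 1035 scaled tags in WT and 6.84 and 6.04 in GrnKO. Promoters of microglial markers were high in all libraries: 9 of 10 had a region, with summed levels of 8477 to 9468 scaled tags in WT and 7476 to 7681 in GrnKO, and Sall1 was called lower. Border macrophage markers (4 of 6 with a region) summed to 313 to 354 in WT and 374 to 477 in GrnKO. Of these, Ms4a7 was called higher (log2 change 1.82). Mrc1 (0.09), F13a1 (-0.09) and Pf4 (-0.16) were not called. Endothelial and mural markers (2 of 6) summed to 14.7 to 33.4 in WT and 145 in both GrnKO libraries, nearly all at Flt1, which was called higher. The single monocyte and neutrophil marker with a region, S100a8, held 0 to 5.22 in WT and 18.8 to 20.5 in GrnKO. Oligodendrocyte markers (6 of 7) summed to 66.0 to 115 in WT and 74.6 to 88.3 in GrnKO, and astrocyte markers (3 of 6) to 0.783 to 26.7 and 9.06 to 18.8. Neuronal (2 of 7) and lymphocyte (1 of 7) markers stayed at or under 3.87 in every library, with Slc17a7 below the 3-tag floor throughout. The part of these other cells in the results below was not tested. Fewer cells of a type and less acetylation per cell cannot be told apart in pools.

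All 77 members passed the filter on low tags, and 72 held more tags per 10000000 than the input of the same pool in all 4 libraries. The other 5 were at or below their input in 1 library each: Rpl23 and Rps26 in WT replicate 1, Rps24 and Rps4l in GrnKO replicate 1, and Rpl23a in GrnKO replicate 2. To compare genes, levels were taken per 800 bp region, as the mean over the 4 libraries. The median member held 47.2 scaled tags per region (middle 50% of members 33.1 to 66.1), and the median of all 11084 tested genes was 35.3 (15.2 to 75.6). Of the members, 55 lay in the upper 50% of tested genes, 3 in the upper 10% (Rpl10a, Rpl21 and Rpl19) and 3 in the lowest 25% (Rpl26, Rpl36 and Rps4l). The middle of the members' levels thus spanned a narrower range than that of all tested genes.

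The highest level per region was that of Rpl10a, a large subunit protein, with 276 scaled tags. It was followed by Rpl21 with 219, Rpl19 with 186 and Rplp2 with 138. At the other end, Rps4l, a relative of the X-linked Rps4x, held 6.23 scaled tags in its 1 region, Rpl36 held 11.1 and Rpl26 held 14.3. Summed over its 4 regions, Rpl10a held 991 and 1075 in WT and 1140 and 1217 in GrnKO. Both GrnKO values were above both WT values, and the log2 change of 0.19 (SE 0.10, adjusted p = 0.361, limma) did not pass the test. Rpl21 held 537 and 348 in WT and 464 and 403 in GrnKO, so that the WT values lay on both sides of the GrnKO values (log2 change 0.00).

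**Figure D1:**
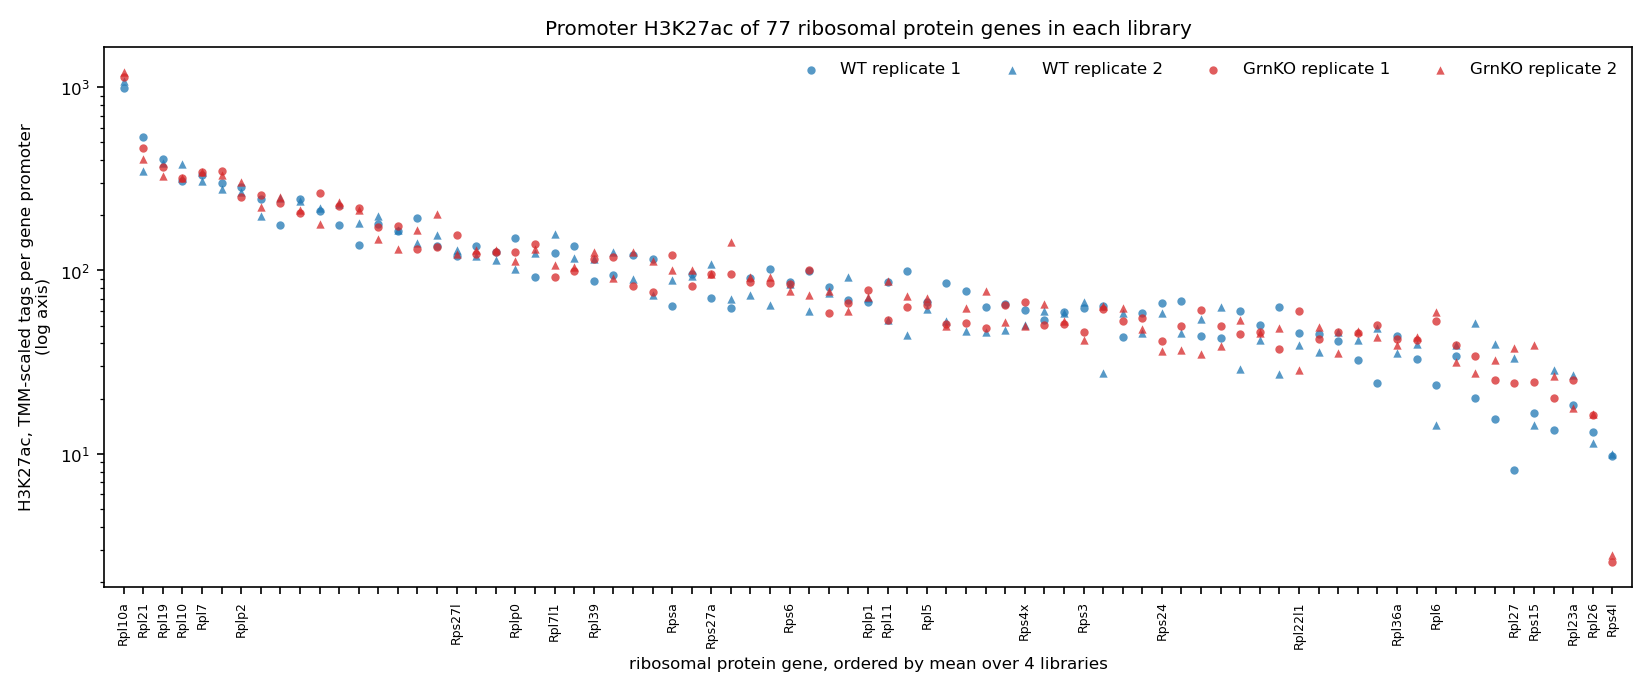
Promoter H3K27ac of each of the 77 genes, as the sum over its regions in TMM-scaled tags on a log axis, with 1 point per library (blue WT, red GrnKO, circles replicate 1 and triangles replicate 2) and genes ordered by their mean (names at some of them). Levels run from 1106 at Rpl10a to 6.23 at Rps4l, and at most genes the blue and red points are mixed.

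The signal was spread around the start site unevenly. Regions centred within 300 bp of the start (88 regions of members) had a median of 51.0 scaled tags, against 28.8 for the other promoters and 22.6 for mitochondrial ribosomal protein genes. The 33 regions centred farther downstream, up to 1000 bp, had a median of 33.0, against 22.1 and 11.6. The 19 regions centred as far upstream, beyond 300 bp, had a median of 65.9, against 24.3 and 38.2. Regions often overlap and upstream regions exist for few members, so the medians do not come from the same genes. All listed regions were taken, tested or not. Within 300 bp, all 88 regions of members passed the filter on low tags, against 11920 of 15120 regions of other promoters. The medians of other promoters thus include regions too low to be tested. Within a gene, the downstream region was below the central one at 18 of 29 members that had both, with a median ratio of 0.715. The upstream region was above the central one at 6 of 18 members, with a median ratio of 0.849. At Rpl10a, the 4 regions, centred at -742, -254, 433 and 975 bp from the start, held 463, 390, 116 and 32.8 scaled tags in WT replicate 1, a fall across the start that was seen in all 4 libraries. The region farthest downstream was higher in both GrnKO libraries (49.5 and 54.9) than in both WT libraries (32.8 and 26.98), with a log2 change of 0.79 (SE 0.32, adjusted p = 0.139, limma by region).

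**Figure D2:**
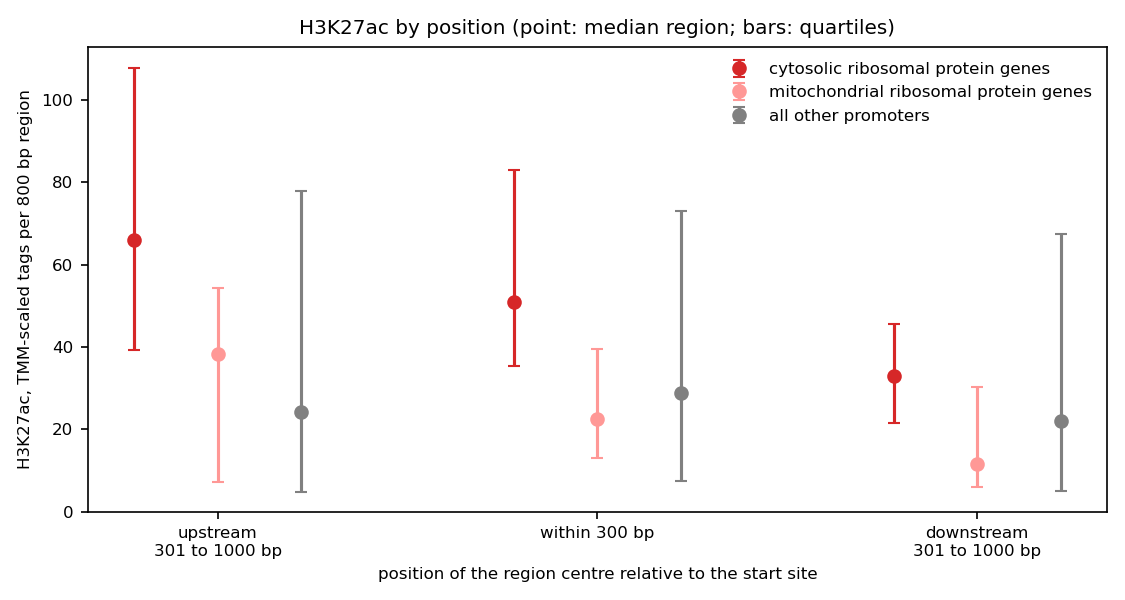
Median H3K27ac per 800 bp region (points) and quartiles (bars), in TMM-scaled tags averaged over the 4 libraries, by position of the region centre, for cytosolic ribosomal protein genes, mitochondrial ribosomal protein genes and all other promoters. The cytosolic genes have medians of 65.9, 51.0 and 33.0 from upstream to downstream, the highest of the 3 classes at each position. All listed regions are included, also those of other promoters that were too low to be tested.

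The main comparison asked whether promoter acetylation of these genes differed in GrnKO nuclei. Few members differed: of 77, Rpl6 was called higher and 0 were called lower at an adjusted p under 0.05 (limma on log2 values, Benjamini-Hochberg adjustment over all 11084 tested genes). That is 1.30% of the members, against 5.49% of all tested genes called in either direction (3.96% higher and 1.53% lower). At an unadjusted p under 0.05, 3 members were higher and 2 lower, together 6.49%, against 18.1% of all tested genes (10.6% higher and 7.43% lower). The median log2 change of the members was 0.03 (middle 50% from -0.08 to 0.19), and that of all tested genes was -0.00 (-0.28 to 0.32). Both GrnKO libraries lay above both WT libraries at 13 members (16.9%, against 24.7% of all tested genes) and below at 11 (14.3%, against 23.2%), and the groups overlapped at 53.

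The intervals show how large an undetected change could be. For 60 members (77.9%) the whole 95% interval of the log2 change lay between -1 and 1, against 50.2% of all tested genes. For 16 of the 77 members it lay within 1.5-fold either way, and for 1979 of all 11084 tested genes. The median standard error was 0.28 for members and 0.30 for all tested genes. The median absolute log2 difference was 0.32 for the WT pair of replicates, 0.21 for the GrnKO pair and 0.15 between the genotype means. Over all tested genes the same medians were 0.33, 0.24 and 0.30. Where the genotypes do not differ, a difference between means of 2 libraries is expected to be smaller than one between single libraries. WT replicates were more than 2-fold apart at 8 members (Rpl22, Rps3a1, Rpl9, Rps7, Rpl24, Rpl34, Rpl27 and Rpl36), and GrnKO replicates at 1, Rpl22l1.

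**Figure D3:**
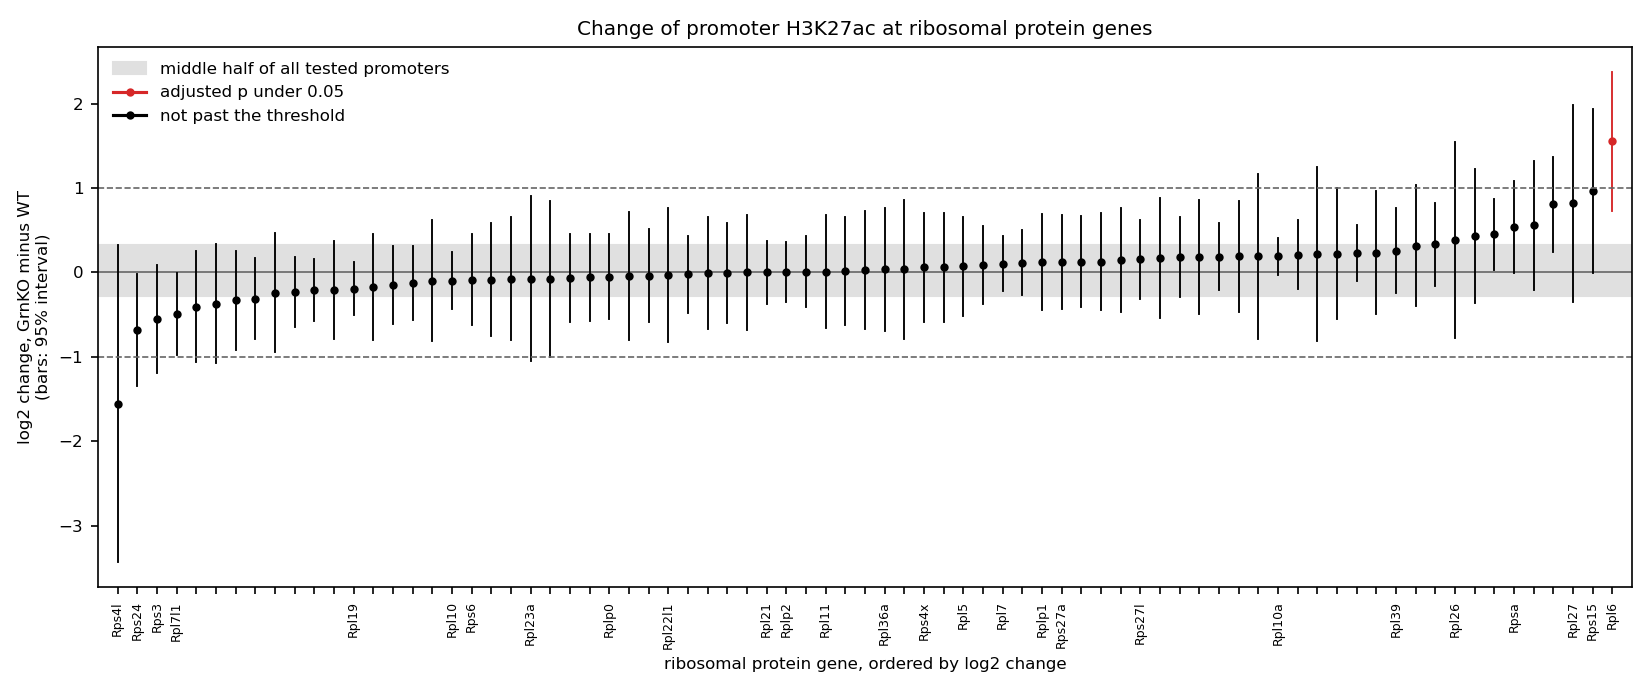
Log2 change of promoter H3K27ac (GrnKO minus WT) with its 95% interval for each member, ordered by size and named at some, beside the middle 50% of all tested promoters (grey band) and lines at -1 and 1. Only Rpl6 (1.55, red) passes the threshold, and 60 of the 77 intervals lie between the lines.

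Rpl6 encodes a large subunit protein. Its promoter held 23.6 and 14.4 scaled tags in WT and 53.3 and 59.0 in GrnKO. Both GrnKO values were more than double either WT value, and the groups did not overlap. The WT mean was 19.0 ± 6.54 (SD, n = 2) and the GrnKO mean 56.2 ± 4.07 (SD, n = 2), a log2 change of 1.55 (SE 0.39, 95% interval 0.73 to 2.38). The adjusted p was 0.0248 (limma). Over 19 settings by limma, edgeR or DESeq2 it ranged from 5.86e-05 to 0.374, and was under 0.05 in 12. These settings include the main fit and its repeat at an adjusted p under 0.1, both among the 12. They also include fits without 1 library. Leaving out GrnKO replicate 1 (log2 change 1.63) or GrnKO replicate 2 (1.49) ended the call.

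The Rpl6 counts were low, at 30.5, 27.5, 93.5 and 127 tags in WT replicates 1 and 2 and GrnKO replicates 1 and 2. They came from 2 regions of mm10 that overlap, so that some tags were counted in both. The region at chr5:121204094-121204894 covers the start site and held 10.2 and 8.38 scaled tags in WT and 27.4 and 29.99 in GrnKO. Its log2 change by itself was 1.54 (adjusted p = 0.0502, limma over 80728 regions). The region at chr5:121204684-121205484 lies in intron 1 of 6 and held 13.7 and 6.02 in WT and 25.5 and 28.6 in GrnKO (1.46, adjusted p = 0.0850, limma). Both regions were thus higher in GrnKO and neither passed the test alone. The input library of GrnKO replicate 1 held 10.5 tags over these regions, and the other 3 inputs held 0. With the inputs subtracted the log2 change was 1.45 and no member was called, but only 1 of all 11084 genes was.

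Neighbouring promoters were not called. Of 14 regions within 30000 bp, the Rpl6 regions included, 6 passed the filter on low tags and 0 of these were called, while 8 were too low to be tested. The promoter of Ptpn11, a phosphatase gene on one side, held 14.9 and 33.8 scaled tags in WT and 13.3 and 22.8 in GrnKO (log2 change -0.35, adjusted p = 0.730, limma). The promoter of Hectd4 on the other side held 9.39 and 17.0 in WT and 9.33 and 16.4 in GrnKO (-0.03, adjusted p = 0.984, limma). At both neighbours the replicates of a genotype differed more than the genotypes.

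**Figure D4:**
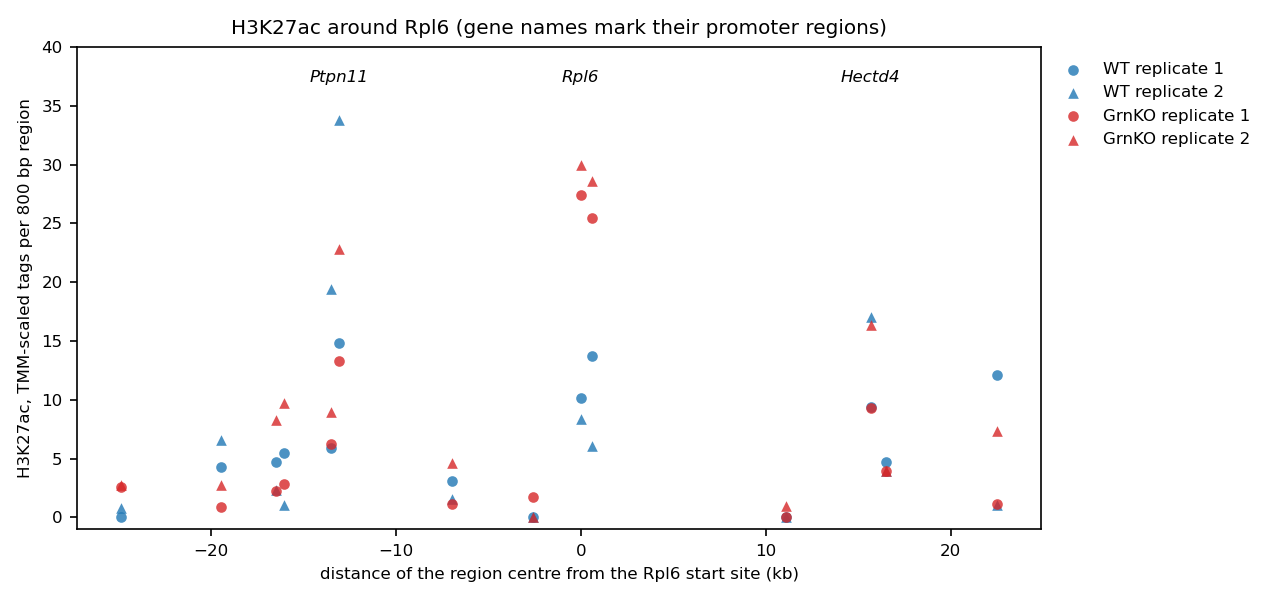
H3K27ac in TMM-scaled tags of every listed region within 30 kb of the Rpl6 start site, by distance of the region centre, with 1 point per library (blue WT, red GrnKO, circles replicate 1 and triangles replicate 2). At Rpl6 both red points (25.5 to 29.99) lie above both blue points (6.02 to 13.7) in each of the 2 promoter regions, while at the promoters of Ptpn11 and Hectd4 the colours are mixed.

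Among the 42 large subunit genes, 1 was called higher (2.38%, against 3.96% of all tested genes) and 0 lower. Their median log2 change was 0.03. Rpl14, whose promoter holds the 14-base pyrimidine run shown above, came next after Rpl6 by p-value and is named after its value was seen. It held 62.7 and 69.7 scaled tags in WT and 95.2 and 142 in GrnKO, with no overlap (log2 change 0.81, SE 0.27, adjusted p = 0.0920, limma). It passed the threshold when WT replicate 2 was left out. Rpl27 had the second largest rise in value among large subunit genes, after Rpl6, from 8.12 and 33.4 in WT to 24.2 and 37.7 in GrnKO. Its WT replicates were 4.11-fold apart and the groups overlapped (log2 change 0.82, SE 0.55, adjusted p = 0.482, limma). Without WT replicate 2 its log2 change was 1.78 and it was called, and without WT replicate 1 it was -0.13. Rpl7, Rpl10 and Rpl19 were among the members with the largest sums. Rpl7 held 332 and 307 in WT and 342 and 344 in GrnKO (0.10, adjusted p = 0.792, limma). Rpl10 held 308 and 382 in WT and 321 and 321 in GrnKO (-0.10, adjusted p = 0.822, limma). Rpl19 held 406 and 385 in WT and 366 and 327 in GrnKO (-0.19, adjusted p = 0.561, limma), without overlap. Rpl23a and Rpl26, 2 of the lowest sums, had log2 changes of -0.07 (SE 0.47) and 0.39 (SE 0.55), and neither passed the test. For Rpl23a no change over input can be given, since 1 GrnKO library was not above its input.

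Among the 28 small subunit genes, 0 were called in either direction by limma, with 1 higher and 1 lower at an unadjusted p under 0.05 (0 called by edgeR and DESeq2 too), and the median log2 change was 0.05. Of all tested genes 5.49% were called by limma and 18.1% had an unadjusted p under 0.05, so 0 calls in a list of this size is near the share of all genes. Rps15 had the largest rise in value among them, from 16.6 and 14.4 in WT to 24.5 and 39.3 in GrnKO, without overlap (log2 change 0.96, SE 0.46, adjusted p = 0.282, limma). Rps29, named after its value was seen, held 138 and 182 in WT and 219 and 215 in GrnKO (0.45, SE 0.20, adjusted p = 0.230, limma), and was called only without WT replicate 2. Rps24 and Rps3 had the largest falls in value. Rps24 held 66.1 and 59.0 in WT and 41.0 and 36.3 in GrnKO, a log2 change of -0.68 (SE 0.32, adjusted p = 0.260, limma). Its inputs were uneven, at 0 and 26 tags in WT and 76 and 0 in GrnKO. The H3K27ac value of GrnKO replicate 1 was not above its input, so no change over input can be given. Rps3 held 62.7 and 67.6 in WT and 46.4 and 41.8 in GrnKO (-0.55, SE 0.30, adjusted p = 0.365, limma). In each of these 4 genes, picked for their changes, the groups did not overlap, and none passed the test. Over the 28 genes, both GrnKO libraries lay above both WT libraries at 3 (10.7%, against 24.7% of all tested genes). They lay below at 5 (17.9%, against 23.2%).

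Rps6, the small subunit protein phosphorylated by S6 kinase downstream of mTOR, held 87.0 and 84.3 in WT and 84.6 and 76.9 in GrnKO. Its log2 change was -0.08 with a 95% interval of -0.62 to 0.45 (adjusted p = 0.917, limma). Rpsa, which also serves as a laminin receptor precursor, held 64.2 and 89.2 in WT and 121 and 100 in GrnKO. Those groups did not overlap, and the log2 change of 0.54 (SE 0.26, adjusted p = 0.287, limma) did not pass the test. Rps27a, which encodes a ubiquitin fused to a ribosomal protein, held 70.8 and 108 in WT and 96.0 and 95.3 in GrnKO (0.13, adjusted p = 0.865, limma).

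The 3 stalk genes encode the acidic proteins that recruit translation factors to the large subunit. Rplp0, whose promoter is shown above, held 150 and 102 in WT and 126 and 113 in GrnKO (log2 change -0.05, 95% interval -0.55 to 0.45). Rplp1 held 66.9 and 71.0 in WT and 78.4 and 71.8 in GrnKO (0.12, -0.45 to 0.69). Rplp2 held 284 and 268 in WT and 252 and 304 in GrnKO (0.01, -0.35 to 0.36). All 3 intervals lay within 2-fold, and none of the genes passed the test.

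Rpl5 and Rpl11 form a particle with 5S ribosomal RNA that can bind MDM2 when ribosome assembly fails. Rpl5 held 67.7 and 61.3 in WT and 65.0 and 70.7 in GrnKO (log2 change 0.07, 95% interval -0.52 to 0.66). Rpl11 held 86.6 and 53.5 in WT and 53.6 and 87.9 in GrnKO (0.01, -0.66 to 0.68), so that its replicates differed far more than its genotypes. The 10 members whose human counterparts are mutated in Diamond-Blackfan anaemia included 0 called by limma, edgeR or DESeq2, with a median log2 change of -0.01. By limma 1 of them, Rps24, was lower at an unadjusted p under 0.05. In a list this short, 0 calls is near the 5.49% of all tested genes. Rps19, the best known of them, held 177 and 230 in WT and 224 and 236 in GrnKO (0.19, adjusted p = 0.676, limma).

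The 4 X-linked members had a median log2 change of 0.05, and the groups overlapped at each. Rpl10 is given above. Rpl36a held 44.1 and 35.5 in WT and 42.2 and 39.0 in GrnKO, Rpl39 held 87.8 and 116 in WT and 116 and 126 in GrnKO, and Rps4x held 61.1 and 50.6 in WT and 67.5 and 49.7 in GrnKO.

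Of 7 listed relatives of ribosomal proteins, 4 had a promoter region and were tested, and their median log2 change was -0.26. Rps4l held 9.67 and 9.92 in WT and 2.56 and 2.79 in GrnKO, a log2 change of -1.55. These values rested on 12.5 and 19.0 tags for the WT replicates and on 4.50 and 6.00 for the GrnKO replicates, close to the floor of 3 tags, and the input of GrnKO replicate 1 held 11 tags there, so that no change over input can be given. Its standard error was 0.90, the widest of the members, and it did not pass the test (adjusted p = 0.390, limma). Rpl7l1, a relative of Rpl7, held 125 and 158 in WT and 92.3 and 108 in GrnKO, without overlap (log2 change -0.50, SE 0.23, adjusted p = 0.263, limma). With the inputs subtracted it was -1.19 (adjusted p = 0.196, limma). Rpl22l1, a relative of Rpl22, held 45.6 and 39.4 in WT and 60.1 and 28.6 in GrnKO (-0.03), with GrnKO replicates on both sides of the WT values. Rps27l, a p53 target related to Rps27, held 121 and 129 in WT and 156 and 123 in GrnKO (0.15, adjusted p = 0.787, limma).

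Fitted region by region, 0 of the 140 member regions were called by limma, against 9.71% of all 80728 tested regions (6.8% higher and 2.92% lower). Among promoter regions of all genes the shares were 3.57% higher and 1.61% lower. At an unadjusted p under 0.05 there were 7 (5%), against 23.9% of all tested regions and 15.9% of all tested promoter regions. By edgeR 0 were called, against 8.58% of all tested regions. Members with the ETS letters in the promoter window and those without had median log2 changes of 0.04 and 0.03, and for the SP letters the medians were 0.04 and 0.04. For the NFY letters they were -0.04 and 0.04, for the TATA letters 0.00 and 0.05, for the E-box letters -0.04 and 0.04, and for the NRF1 letters 0.07 and 0.04. Members with the C followed by TTT at the start and those without had medians of -0.01 and 0.07. The widest gap was that of the YY1 letters, with -0.29 in only 4 members and 0.05 in the others. These medians are descriptions, and their differences were not tested.

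As a share of all promoter tags, the members took 0.570% and 0.547% in WT and 0.575% and 0.573% in GrnKO, with means of 0.559% ± 0.0167 (SD, n = 2) and 0.574% ± 0.000984 (SD, n = 2). This difference of 0.0153 percentage points had an exact two-sided permutation p of 0.333, the smallest that 2 libraries against 2 can give. Without TMM factors, the mean member region held 53.6 and 65.1 tags per 10000000 in WT and 70.3 and 70.7 in GrnKO. Other promoters moved in step, at 46.6 and 59.1 in WT and 60.7 and 61.2 in GrnKO.

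In the inputs the mean member region held 2.90 and 2.55 tags per 10000000 in WT and 4.39 and 2.00 in GrnKO. The H3K27ac value was thus 18.5 and 25.5 times the input in WT and 16 and 35.3 times in GrnKO. For other promoters it was 14.9 and 24.2 times in WT and 20.8 and 26.9 times in GrnKO. In the shallow WT input 1, 69 members had no tags, and in the deepest, GrnKO input 1, 24 had none. Only 8 members had enough input tags to be tested, and limma called 0 of them, 0% of 1001 tested genes being called, with 2 of the 8 at an unadjusted p under 0.05, against 10.8% of the 1001.

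Other genes of the translation machinery were set beside the members by the same test. Fau, which encodes a small subunit protein fused to a ubiquitin-like one, and Rack1, a scaffold protein on the small subunit, are cytosolic ribosome genes with other names. They changed by -0.19 (adjusted p = 0.833, limma) and 0.28 (adjusted p = 0.407, limma). Of 68 tested mitochondrial ribosomal protein genes, limma called 0, against 5.49% of all tested genes. At an unadjusted p under 0.05, 2 were higher and 3 lower (7.35%, against 18.1%), and their median log2 change was -0.03 (middle 50% -0.36 to 0.25). Their promoters were weaker, with a median of 20.97 scaled tags per region, and their median standard error was 0.45. Of 16 translation factor and related genes with TOP mRNAs, limma called 0, with 2 higher at an unadjusted p under 0.05 (12.5%, against 18.1% of all tested genes), and the median was 0.01.

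Single calls were made among initiation factors, regulators and ribosome biogenesis genes. These are small counts beside the 5.49% called among all tested genes, and no difference of a list from that share was tested. Of 21 initiation factor genes, 2 were higher and 0 lower (9.52%). Eif2s2, a subunit of eIF2, held 35.2 and 40.4 in WT and 90.6 and 77.2 in GrnKO (log2 change 1.13, adjusted p = 0.0336, limma). Eif3b, a core subunit of eIF3, held 473 and 442 in WT and 694 and 628 in GrnKO (0.53, adjusted p = 0.0223, limma). Of 22 regulators of ribosomal protein genes and of mTOR signalling, 2 were higher and 0 lower (9.09%). Tsc1, an inhibitor of mTOR signalling, held 207 and 278 in WT and 451 and 344 in GrnKO (0.71, adjusted p = 0.0274, limma). Tfeb, a transcription factor of lysosomal genes that mTOR phosphorylates, held 446 and 401 in WT and 614 and 602 in GrnKO (0.52, adjusted p = 0.0268, limma). Of 52 tested ribosome biogenesis genes, 0 were higher and 1 was lower (1.92%). That gene was Nolc1, a nucleolar phosphoprotein, which held 59.2 and 50.1 in WT and 24.8 and 9.30 in GrnKO (-1.77, adjusted p = 0.0267, limma).

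**Figure D5:**
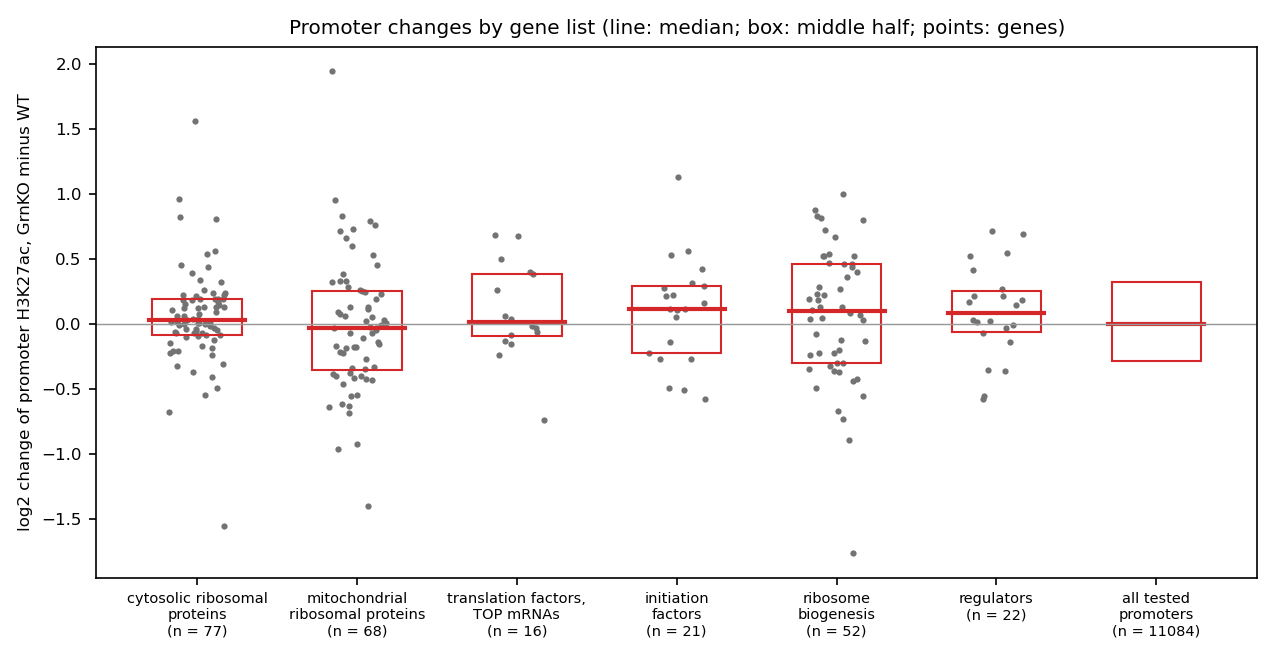
Log2 change of promoter H3K27ac (GrnKO minus WT) for each gene (points) of 6 lists, with the median (line) and the middle 50% (box), and the same for all 11084 tested promoters. The box of the cytosolic ribosomal protein genes (-0.08 to 0.19) is narrower than that of the mitochondrial ones (-0.36 to 0.25) and of all promoters (-0.28 to 0.32).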

How the data were processed

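H3K27ac and input libraries came from PU.1+ nuclei of WT and GrnKO mice, 2 pools per genotype. Per the file headers, the deposited values are a signal: tags per region, scaled by the authors to 10000000 per library. The 129304 regions of 800 bp come from reproducible ATAC-seq peaks that were merged, and the name of their list carries labels of other knockout lines. Per the submitters' processing notes, Bowtie2, HOMER, DESeq2 and mm10 were used, with no role or version. How duplicate reads and reads matching several places were treated is not given in the sources used here. Ribosomal protein genes have many near-identical pseudogene copies, so their reads may be affected.

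Multiplying by the library totals returned whole read ends, at 2 ends per tag, for 100% of values within 0.005 scaled tags. A floor of 3 tags was 1.50 to 1.94 scaled tags. Values were summed over the regions within 1000 bp of each start site, and 48 members have overlapping regions, where a tag counts more than once. At 13 members a region also overlaps one assigned to another gene. Genes were kept by filterByExpr (edgeR 4.0.16, minimum 10 tags), scaled by TMM (factors 0.834 and 1.04 in WT, 1.07 and 1.07 in GrnKO), and tested on log2(value + 1) with limma 3.58.1 (lmFit, eBayes with trend, R 4.3.3) over all 11084 genes. Benjamini-Hochberg adjusted p under 0.05 was called. The log2(value + 1) scale understates changes of low genes. Regions were fitted alike. The edgeR quasi-likelihood test on recovered reads called 542 genes and DESeq2 1.42.0 called 690, against 609 by limma. Fits were checked on simulated data.

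The members, lists and markers were chosen with earlier results of these data known, as were the other choices. Named members were those called, the 5 highest and 3 lowest sums, the 3 largest changes each way, and the stalk, 5S, X-linked and relative lists with Rpsa, Rps6 and Rps27a; other lists gave at most 3 called genes. Rpl14, Rpl7a, Rps29, Rps19, Fau, Rack1 and genes given only by name or in counts stand outside this rule and were chosen after their values were seen. Replicates were not copies of one library, since chi-square over its degrees of freedom was 14.4 between the WT replicates and 9.29 between the GrnKO replicates. With 2 pools a group, p-values and intervals rest on the spread between these pools and cover no other source. eBayes with trend moves each gene's spread towards that of genes of like level, so an SE is not the gene's own spread alone.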

Additional observations from a re-analysis of the deposited data

How the results depend on the processing

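Of 583 values recomputed under other settings, 0 reversed a called direction. Among the 27 genes of the naming rule, 7 calls were lost, all of Rpl6, 1 was gained (Rpl27 without WT replicate 2), and 44 of 485 values changed sign without a call in either fit. Against 1 member called higher, 0 were called with no filter on low tags (against 3.40% of all tested genes). The same held for the strongest region per gene (4.85% of all), non-overlapping regions (5.87%), regions within 500 bp (3.29%) and inputs subtracted (0.00902%). There were 2 (Rpl6 and Rpl14) with the replicate block (against 8.62% of all tested genes) and at an adjusted p under 0.1 (against 8.35%). With all regions assigned to a gene, 4 were higher (Rpl31, Rpl34, Rpl6 and Rps14) and 1 lower (Rps10), against 14.4% of all tested genes. Which members were called changed with the library left out, and Rpl6 was not called when either GrnKO library was left out. Without WT replicates 1 and 2 in turn, the members' median log2 changes were 0.08 and -0.03, against -0.005 and -0.009 for all tested genes. Without GrnKO replicates 1 and 2 in turn, these medians were 0.06 and 0.08 for members and 0.006 and 0.01 for all. The library alone in its group was assumed to vary like the others.

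Against 609 genes called in all, there were 348 within 500 bp, 2218 with all regions, 1 with inputs subtracted, 955 with the replicate block, 925 at an adjusted p under 0.1, and 61 to 1299 without one library (61 without GrnKO replicate 1 and 176 without GrnKO replicate 2). With the authors' scaling alone the median log2 change was 0.23 for members and 0.20 for all genes, a gap of 0.03 as with TMM, and 95.2% of called genes were higher, against 72.1%. Without WT replicate 2 the members' median was -0.03. Over all listed regions instead of promoters the share differed by 0.00321 percentage points, against 0.0153, with a larger denominator. The shares were then 0.1521% and 0.1440% in WT and 0.1518% and 0.1507% in GrnKO, so that the groups overlapped. Against 0 member regions called, 2 were called with the authors' scaling (against 8.56% of all tested regions). There were 2 with the replicate block (against 14.1%) and 2 at an adjusted p under 0.1 (against 14.5%). Rpl6 held the 2 in each setting. Which member regions were called changed with the library left out. Same-numbered samples are different mice, and their deviations correlated at 0.0587, so the numbers do not pair them. Regions assigned to these genes beyond 1000 bp gave 7 to 21 calls without one library, against 14. The causes were not tested. The low tag counts of members such as Rps4l and Rpl26 limit what could be detected there.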

Other observations

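Regions farther than 1000 bp from a start site, whose nearest start in the table is that of a ribosomal protein gene, were no part of the comparison of promoters. There were 211, of which 83 passed the filter, assigned to 30 genes. Limma by region called 11 higher and 3 lower in GrnKO, 16.9% of those tested, against 11.4% of all regions beyond 1000 bp. The nearest start need not be the gene that a region acts on. Alternatives for this count were chosen after seeing the data: it was 11 with the authors' scaling, 14 with edgeR and 7 to 21 without one library, 7 being the value without either GrnKO library.

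The 14 regions were assigned to 6 genes. Of 4 regions 7.59 to 11.5 kb from Rps14, the one 11.2 kb away held 12.5 and 17.0 scaled tags in WT and 106 and 91.1 in GrnKO (log2 change 2.67, adjusted p = 6.07e-05, limma). The Rps14 promoter itself held 165 and 166 in WT and 175 and 131 in GrnKO (-0.13, adjusted p = 0.825, limma). The 3 regions assigned to Rpl31 lie 54.0 to 86.7 kb away in introns of Npas2. The strongest by p-value, at chr1:39307062-39307862 of mm10, held 70.4 and 62.3 in WT and 212 and 203 in GrnKO (1.63, adjusted p = 6.34e-05, limma). The 3 called regions assigned to Rpl34 lie 142 to 149 kb away and were higher in GrnKO, by 1.11 to 1.54 on the log2 scale. The called region assigned to Rplp1, 209 kb away, was higher by 0.91. Lower in GrnKO were 2 regions 7.35 and 8.09 kb from Rps10 (-0.77 and -0.84) and 1 in an intron of Pxn 25.8 kb from Rplp0 (-0.86). The promoters of these 6 ribosomal protein genes were not called.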
